A study of Mus musculus with 4 samples.

Results

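The JAK-STAT pathway was read here through 10 genes chosen by name: the kinases Jak1 and Tyk2, the transcription factors Stat3, Stat4, Stat5a, Stat5b and Stat6, and the feedback inhibitors Socs1, Socs3 and Cish. Each symbol matched 1 of the 46078 gene rows of the count table, and all 10 passed the filter on low counts, together with 14985 other genes. The libraries were made from dendritic cells (DCs) of mice that had received EL4-Flt3 tumour cells, made from the EL4 T lymphoma of mice, 10 days earlier. Il33flx animals carried the CD11c-cre transgene and 2 loxP-flanked (flx) alleles of Il33 (CD11c-cre-Il33flx/flx), and Ctrl animals carried CD11c-cre alone, so that all animals had the transgene and the tumour. The CD11c promoter drives Cre in DCs and in some other myeloid cells. Spleen and mesenteric lymph node cells were sorted as positive for CD45, CD11b, MHC class II and CD103 and negative for CD64, and each group had 2 libraries. The age and strain of the animals, and whether a library stands for 1 animal or a pool, are not stated in the sources used here. The p-values therefore cover only the variation from library to library, which can be technical in part.

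Janus kinases (JAKs) are bound to the inner side of cytokine receptors and phosphorylate each other, the receptor and then STAT proteins when a cytokine brings the receptor chains together. Phosphorylated STATs pair up, enter the nucleus and bind DNA at palindromes of the form TTCNNNGAA, and among the genes they turn on are those of the SOCS family, whose proteins block the kinases or the receptors and so close a feedback loop. In DCs, Flt3 ligand acts largely through STAT3, GM-CSF through STAT5, interleukin-4 and interleukin-13 through STAT6, and type I interferons through JAK1 and TYK2. Interleukin-33 itself signals through ST2 and the adaptor MyD88, not directly through a JAK.

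The comparison asked whether these DCs express genes differently when Cre can delete Il33 in cells with an active CD11c promoter. Gene counts summed to 67707682 and 69983532 in the Il33flx libraries and to 81217828 and 75094424 in the Ctrl libraries. Il33, the targeted gene, had 4 and 0 counts in Il33flx and 4 and 8 in Ctrl, too few to check the labels. Genes of the sort were read in every library, with Ptprc (CD45) at 563 to 1012 CPM (counts scaled to a fixed library total with TMM factors), H2-Ab1 (MHC class II) at 33060 to 42775 CPM, Itgam (CD11b) at 97.8 to 128 CPM, Itgae (CD103) at 56.8 to 116 CPM and Fcgr1 (CD64) at 3.66 to 5.5 CPM, while Irf8, a DC transcription factor gene, had 3346 to 4817 CPM and Xcr1, the chemokine receptor gene of type 1 DCs, ranged over 506 to 841 CPM. Sirpa, a marker of type 2 DCs, had 258 to 319 CPM, below Xcr1 in every library. CPM do not allow for gene length, and the parts of type 1 and type 2 DCs were not tested. Itgax (CD11c) had 359 and 407 CPM in Il33flx, against 647 and 517 CPM in Ctrl, and was not called (edgeR). Both Il33flx values lay below both Ctrl values, as for 14.9% of all genes tested. Ctrl 1 stood apart from the other 3 libraries, at 70.1 on the first principal component (50% of the variance) against -26.2 and -25.2 for Il33flx 1 and 2 and -18.8 for Ctrl 2, so values are also given without it below. A fit that leaves out a library takes its library-to-library variation from the other group alone. Its p-values therefore do not cover variation within the group left with a lone library.

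The promoters of 2 SOCS members are shown because they hold the STAT recognition sequence close to the start of genes known as STAT targets. The windows run from 250 bases before to 50 bases after the RefSeq gene start on GRCm38.p6, at chr11:117969317-117969616 on the minus strand for Socs3 and chr9:107296409-107296708 on the plus strand for Cish, with capitals marking each match to TTCNNNGAA.
Socs3: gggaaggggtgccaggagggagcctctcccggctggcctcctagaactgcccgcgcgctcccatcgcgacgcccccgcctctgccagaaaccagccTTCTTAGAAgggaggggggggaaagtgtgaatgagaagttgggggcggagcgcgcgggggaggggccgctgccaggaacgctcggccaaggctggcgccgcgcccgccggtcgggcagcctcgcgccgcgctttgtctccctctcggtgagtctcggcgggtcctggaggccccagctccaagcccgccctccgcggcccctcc
Cish: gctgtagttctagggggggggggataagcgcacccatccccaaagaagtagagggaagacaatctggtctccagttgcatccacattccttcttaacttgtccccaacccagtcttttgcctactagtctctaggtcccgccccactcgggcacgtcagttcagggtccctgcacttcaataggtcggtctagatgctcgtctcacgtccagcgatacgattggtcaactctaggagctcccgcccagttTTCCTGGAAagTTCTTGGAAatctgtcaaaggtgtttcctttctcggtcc
The motif reads the same on both strands, and its matches here do not overlap each other. Cish held 2 matches, starting 1 and 12 bases into the transcribed part, and Socs3 held 1, starting 154 bases before the gene start. At least 1 match was present in 8.3% of all 32851 promoter windows of the same length, and 2 or more in 0.457%. In the 11 windows of the other 8 members these letters were absent, and so was the form with 1 more base between TTC and GAA, a spacing that STAT6 prefers, in all 13 windows of the 10 members, against a match in 6.95% of all windows. GENCODE places the start of Cish 633 bases and that of Socs3 681 bases further upstream, so that other stretches of these promoters were not searched. By the GENCODE starts, both windows and all matches in them lie inside the genes. A match is a description of the letters, and binding was not measured.

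None of the 10 genes was called between Il33flx and Ctrl at an adjusted p below 0.05 in edgeR's quasi-likelihood test, where 0.00667% of the 14995 genes tested were called (1 gene in all, Gdpd3, higher in Il33flx). None of the 10 had an unadjusted p below 0.05 in edgeR either, against 3.26% of all genes tested. The log2 fold changes of Il33flx over Ctrl ran between -0.36 for Tyk2 and 0.33 for Stat4, with a median of -0.12 beside 0.01 over all genes tested. With all 4 libraries, the 95% interval of the change lay inside a 2-fold difference in either direction for 8 of the 10 genes, and reached past it for Stat4 and Cish. The 2 groups did not overlap for 5 genes, 2 of them higher in Il33flx (15.4% of all genes tested) and 3 of them lower (14.9%), against 30.3% of all genes in either direction. No test of the list was made, and with 2 libraries against 2 an exact permutation test of a single value cannot give a two-sided p below 0.333.

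**Figure D1:**
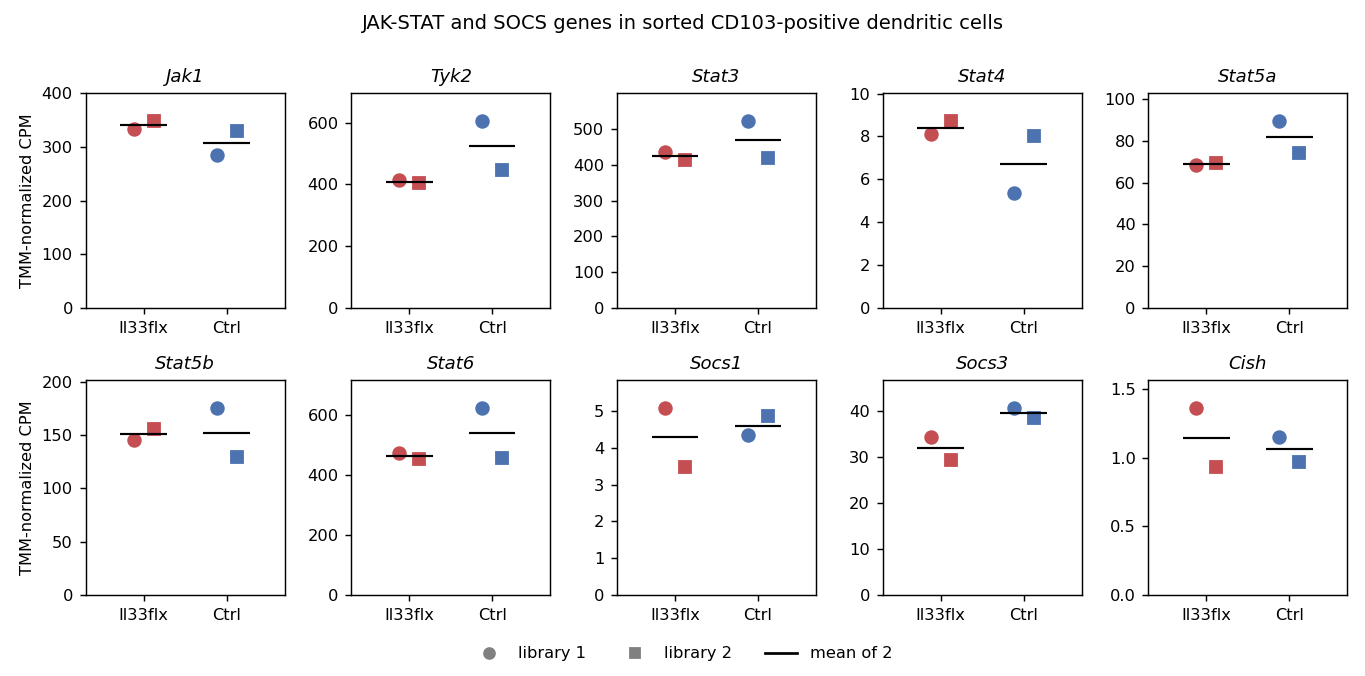
TMM-normalized CPM of the 10 genes in each library, with Il33flx on the left and Ctrl on the right of each panel, a point for each library and a line at the mean of 2. Ctrl 1 (blue circle) is the highest library for Tyk2, Stat3, Stat5a, Stat5b, Stat6 and Socs3 and the lowest for Jak1 and Stat4.

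The kinase genes differed in opposite directions, neither past the test. Tyk2 encodes a JAK of the type I interferon, interleukin-12 and interleukin-10 receptors and lies on chromosome 9 (21104068 to 21131243, minus strand of GRCm38). It had 413 and 404 CPM in Il33flx 1 and 2, against 604 and 447 CPM in Ctrl 1 and 2. Both Il33flx values lay below both Ctrl values, and Ctrl 1 was well above the other 3 libraries. The log2 fold change was -0.36 ± 0.20 (SE, 95% interval -0.85 to 0.12, unadjusted p = 0.117, adjusted p = 0.995, edgeR), the smallest unadjusted p of the 10 genes. Without Ctrl 1 the log2 fold change was -0.12. Jak1, on chromosome 4 (101152367 to 101265282, minus strand), serves most cytokine receptors with a JAK, including those of interferons and of the gp130 and common gamma chain families. It had 333 and 348 CPM in Il33flx, against 286 and 329 CPM in Ctrl. The groups lay apart by the small step between Il33flx 1 and Ctrl 2, and the log2 fold change was 0.15 ± 0.17 (SE, adjusted p = 0.995, edgeR) with all libraries and 0.06 without Ctrl 1. The ratio of the Tyk2 level to the Jak1 level per kilobase of exon, chosen after the values were seen, was 1.3 and 1.22 in Il33flx and 2.22 and 1.43 in Ctrl. It was above 1 in every library and highest in Ctrl 1. The ratios of Socs3 to Socs1 and of Stat6 to Stat3 were chosen in the same way, and the groups overlapped for both.

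Stat6, Stat3 and Stat5a were highest in Ctrl 1 and differed little among the other libraries. Stat6 transmits interleukin-4 and interleukin-13 signals and is on chromosome 10 (127642986 to 127660957, plus strand). It had 474 and 454 CPM in Il33flx, against 623 and 457 CPM in Ctrl. Ctrl 2 lay between the Il33flx libraries, and the log2 fold change was -0.22 ± 0.20 (SE, adjusted p = 0.995, edgeR) with all libraries and 0.03 without Ctrl 1. Stat3, the main STAT of Flt3 ligand, interleukin-6 and interleukin-10, had 436 and 414 CPM in Il33flx, against 521 and 419 CPM in Ctrl. Here too Ctrl 2 lay inside the Il33flx range, and the log2 fold change of -0.15 ± 0.18 (SE, adjusted p = 0.995, edgeR) was 0.03 without Ctrl 1. Stat5a had 68.3 and 69.3 CPM in Il33flx, against 89.4 and 74.3 CPM in Ctrl. Its groups did not overlap, with a log2 fold change of -0.25 ± 0.19 (SE, adjusted p = 0.995, edgeR) that was -0.10 without Ctrl 1.

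Stat5b was also highest in Ctrl 1 but differed more among the other libraries, and Stat4 was lowest in Ctrl 1. Stat5b encodes a close paralogue of STAT5A that also carries GM-CSF and common gamma chain signals. It had 145 and 156 CPM in Il33flx, against 175 and 129 CPM in Ctrl. The Ctrl libraries enclosed the Il33flx libraries, and the log2 fold change was -0.01 ± 0.21 (SE, adjusted p = 1, edgeR), with a 95% interval of -0.51 to 0.49 and a value of 0.24 without Ctrl 1. Stat4, the STAT of the interleukin-12 receptor and best known from T cells and NK cells, lies on chromosome 1 (51987148 to 52107189, plus strand). It had 8.12 and 8.71 CPM in Il33flx, against 5.36 and 8.03 CPM in Ctrl. Ctrl 1 was low and the other 3 libraries were close together, and the log2 fold change of 0.33 ± 0.30 (SE, 95% interval -0.38 to 1.04, adjusted p = 0.995, edgeR) was 0.08 without Ctrl 1. Summed over 9 NK cell markers, led by Klrd1, Nkg7 and Prf1, the level was 47.7 CPM in each Il33flx library and 38.3 and 45.3 CPM in Ctrl 1 and 2, and over 14 T cell and EL4 markers, led by Lck, Cd5 and Tcf7, it was 126 and 111 CPM in Il33flx and 186 and 132 CPM in Ctrl. Of the named NK cell markers, only Klrd1 was low in Ctrl 1, at 3.96 CPM against 25.1 CPM in Ctrl 2. Nkg7 and Prf1 were highest in Ctrl 1, at 19.9 and 5.43 CPM. No marker of either list was at 0 in all libraries, and the part of such cells in the Stat4 values was not tested. In bulk libraries, fewer cells of a type and less RNA per cell cannot be told apart.

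Stat5b, Stat5a and Stat3 are neighbours on chromosome 11, within 159 kb. Stat5b (100780731 to 100850724, minus strand) and Stat5a (100859351 to 100885169, plus strand) point away from each other across 8626 bp, and the ends of Stat5a and Stat3 (100885098 to 100939540, minus strand) overlap by 72 bp. Reads from that overlap cannot be assigned without strand, which the sources used here do not state, but it is short beside the exon length of either gene (7133 bp for Stat5a and 9527 bp for Stat3). Of all 50-base stretches in Stat5b transcripts, 11% also occurred in Stat5a, and 8.52% of those of Stat5a occurred in another gene, so that some reads of the pair are lost or split and their levels are uncertain to that extent. Other members shared such stretches with overlapping genes of few counts. Stat4 shared 21.7% with Gm28177, which had 1 to 9 counts per library. Gm28177 lies on the same strand and covers 1033 of the 3872 bp of Stat4 exons. Tyk2 shared 7.52%, chiefly with the antisense gene 1700084C06Rik, which had 99 to 126 counts beside 28591 to 46321 for Tyk2. Cish shared 9.35%, chiefly with Gm17041 and Gm17040 on the opposite strand, which had at most 1 count per library. Reads from shared stretches can stay uncounted for both genes, so few counts of the other gene do not show how many were lost. The levels of Stat4, Cish and Tyk2 per kilobase are uncertain to that extent.

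None of the inhibitor genes passed the test. Socs3, which blocks gp130 and G-CSF receptor signalling, is on chromosome 11 (117966079 to 117970047, minus strand). It had 34.3 and 29.4 CPM in Il33flx, against 40.5 and 38.3 CPM in Ctrl. Both Il33flx libraries were lower than both Ctrl libraries, and Ctrl 1 and Ctrl 2 were close to each other. The log2 fold change was -0.30 ± 0.20 (SE, 95% interval -0.78 to 0.17, unadjusted p = 0.17, adjusted p = 0.995, edgeR). Of the 5 genes whose groups did not overlap, Socs3 kept most of its difference without Ctrl 1, at a log2 fold change of -0.26. Neutrophils also express Socs3, and 12 neutrophil markers, led by Mpo, S100a9 and Ltf and none at 0 in all libraries, summed to 743 and 530 CPM in Il33flx and 417 and 409 CPM in Ctrl. These sums were higher in Il33flx, where Socs3 was lower, and within each group the library with more Socs3 had the higher sum. The part of neutrophils in the Socs3 values was not tested.

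Socs1, the inhibitor of interferon receptor signalling, lies on chromosome 16 (10782240 to 10785536, minus strand) and had 5.07 and 3.49 CPM in Il33flx, against 4.34 and 4.85 CPM in Ctrl. The Il33flx libraries enclosed the Ctrl libraries, and the log2 fold change was -0.10 ± 0.32 (SE, adjusted p = 0.995, edgeR). Cish (107296026 to 107302784 on chromosome 9, plus strand), a target and inhibitor of STAT5, was read by 96 and 66 counts in Il33flx and 88 and 73 counts in Ctrl. These were 1.36 and 0.932 CPM in Il33flx, with exact 95% Poisson intervals of 1.1 to 1.66 and 0.721 to 1.19, against 1.15 and 0.971 CPM in Ctrl, with intervals of 0.92 to 1.41 and 0.761 to 1.22. Both Ctrl values lay between the Il33flx values, and no difference was called (log2 fold change 0.11 ± 0.44 SE, 95% interval -0.94 to 1.17, adjusted p = 0.995, edgeR). Such intervals cover counting error only, since PCR reads are not independent molecules. The transcript with 2 STAT motifs in its promoter window was the least abundant of the 10.

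**Figure D2:**
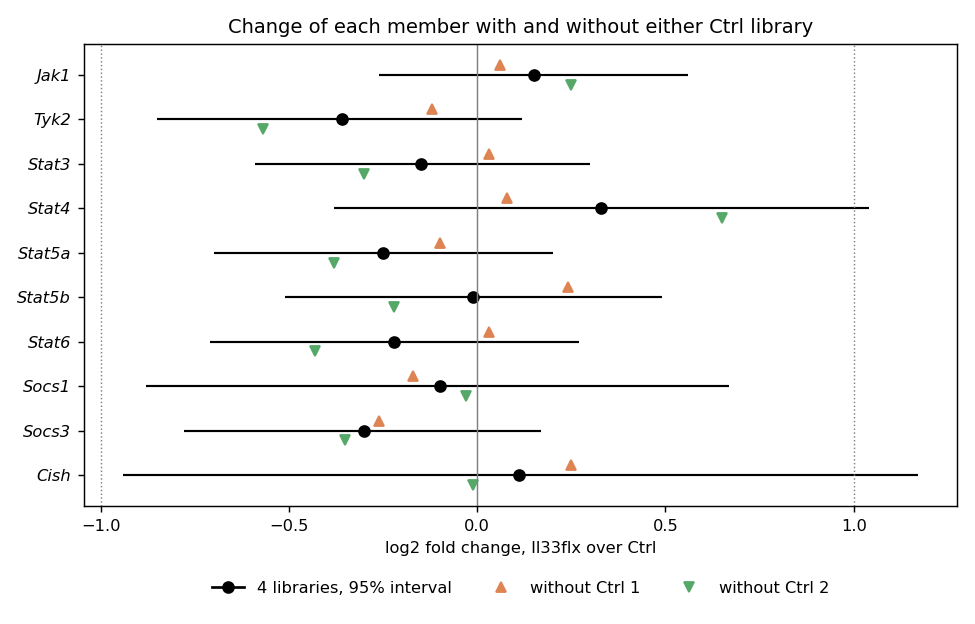
Log2 fold change of Il33flx over Ctrl for each gene, as a black point with its 95% interval from all 4 libraries, and as triangles without Ctrl 1 (upward) and without Ctrl 2 (downward). Dotted lines mark a 2-fold change, and every black interval crosses 0.

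Ctrl 1 was the library farthest from the mean of the other 3 for 6 of the 10 genes (Jak1, Tyk2, Stat3, Stat4, Stat5a and Stat6), and for 49.7% of all genes tested. Without Ctrl 1 the log2 fold change was closer to 0 for 7 genes, all but Stat5b, Socs1 and Cish, and the median over the 10 was 0.03. In that fit 0 of the 10 had an unadjusted p below 0.05, against 5.67% of all genes tested, and 0 were called, against 0.227% (edgeR). Without Ctrl 2, where Ctrl 1 is the sole control, Tyk2 had -0.57 ± 0.12 (SE, unadjusted p = 0.00711, adjusted p = 0.135, edgeR), Stat6 had -0.43, Stat5a -0.38 and Stat4 0.65. These 4 genes had an unadjusted p below 0.05 in that fit, as did 20.6% of all genes tested, and 0 genes passed the adjusted threshold (edgeR). The 10 markers of mature DCs, led by Cd83, Ccr7 and Relb and none at 0 in all libraries, summed to 2382 and 2548 CPM in Il33flx and to 3736 and 2317 CPM in Ctrl 1 and 2. Like Tyk2, Stat6 and Stat3, the sum was highest in Ctrl 1, but the order of the other libraries differed. Cd83 itself was highest in Il33flx 2, at 1345 CPM against 1266 CPM in Ctrl 1. The part of mature DCs in the values of the 10 genes was not tested.

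Levels of different genes were compared per kilobase of exon. Stat6 was the most abundant, at 105 ± 3.27 CPM per kb in Il33flx and 123 ± 26.6 in Ctrl (SD, n = 2 each), followed by Tyk2 at 59.5 ± 0.931 and 76.5 ± 16.1 CPM per kb. Stat3, at 43.4 to 54.7 CPM per kb over the 4 libraries, and Jak1, at 39.6 to 48.2, overlapped in range. Stat5b followed at 23.2 to 31.6 CPM per kb. Socs3 (10.2 to 14) and Stat5a (9.57 to 12.5) overlapped, as did Stat4 (1.38 to 2.25) and Socs1 (1.2 to 1.74), and Cish was lowest at 0.145 to 0.212 CPM per kb. At every other step in this order the ranges over the 4 libraries did not overlap. With the length of the longest transcript in place of the summed exons, Stat5a (19 CPM per kb on average) came before Socs3 (14) and no other place changed.

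**Figure D3:**
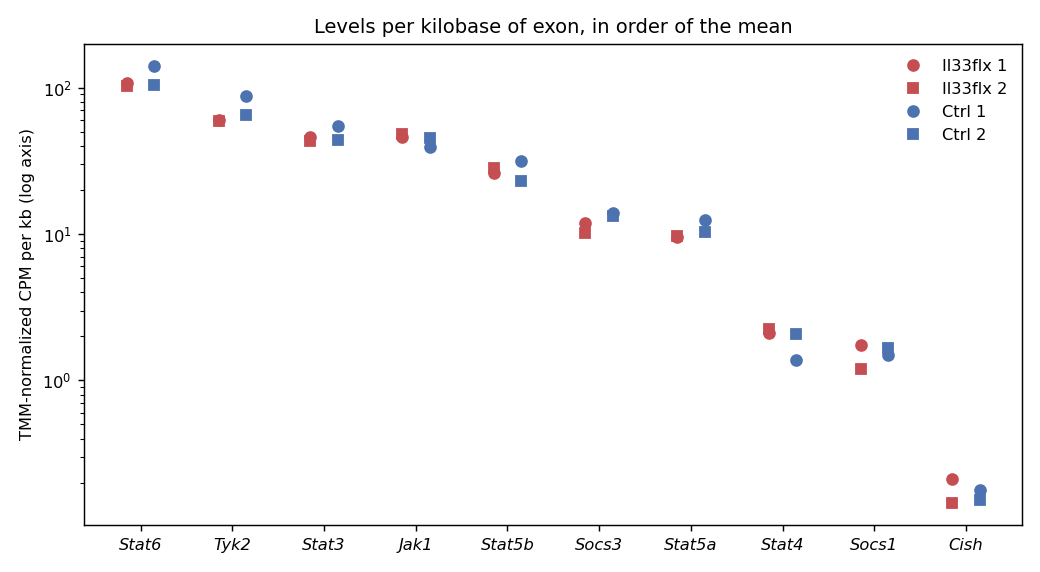
TMM-normalized CPM per kilobase of exon (log axis) for each gene in each library, ordered by the mean, with Il33flx left of Ctrl. Stat6 lies above 100 CPM per kb in all 4 libraries and Cish below 0.3.

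Among the 5 STAT members, shares of the summed level were similar in all libraries, except that Stat4 was lower in Ctrl 1. STAT genes outside the members were left out, so these are not shares of all STAT transcripts. Of the summed level per kilobase of the 5 STAT genes, Stat6 took 56.3% and 55.2% in Il33flx and 58.5% and 56.6% in Ctrl, and Stat3 took 23.9% and 23.3% in Il33flx and 22.6% and 23.9% in Ctrl. Stat5b made up 13.7% and 15.1% in Il33flx and 13.1% and 12.7% in Ctrl, and Stat5a 5% to 5.68% in all. Stat4 was the smallest part, at 1.1% and 1.2% in Il33flx and 0.572% and 1.13% in Ctrl. The groups did not overlap for Stat6, with means of 55.8% in Il33flx and 57.6% in Ctrl, or for Stat5b, with means of 14.4% and 12.9%. They overlapped for the other STAT members. The ratio of Stat5a to Stat5b was 0.365 and 0.344 in Il33flx, against 0.396 and 0.449 in Ctrl, so that Stat5b was the larger partner in every library and the groups did not overlap. The ratio of Socs3 to Cish was 56 and 70.1 in Il33flx, against 78.4 and 87.6 in Ctrl, again without overlap, with fewer than 100 counts of Cish behind each value. The shares of a library add up to a fixed total, so that a higher share of one gene lowers the others. In CPM, the groups did not overlap for 30.3% of all genes tested. These shares and ratios do not depend on the scaling between libraries, and no test of them was made.

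**Figure D4:**
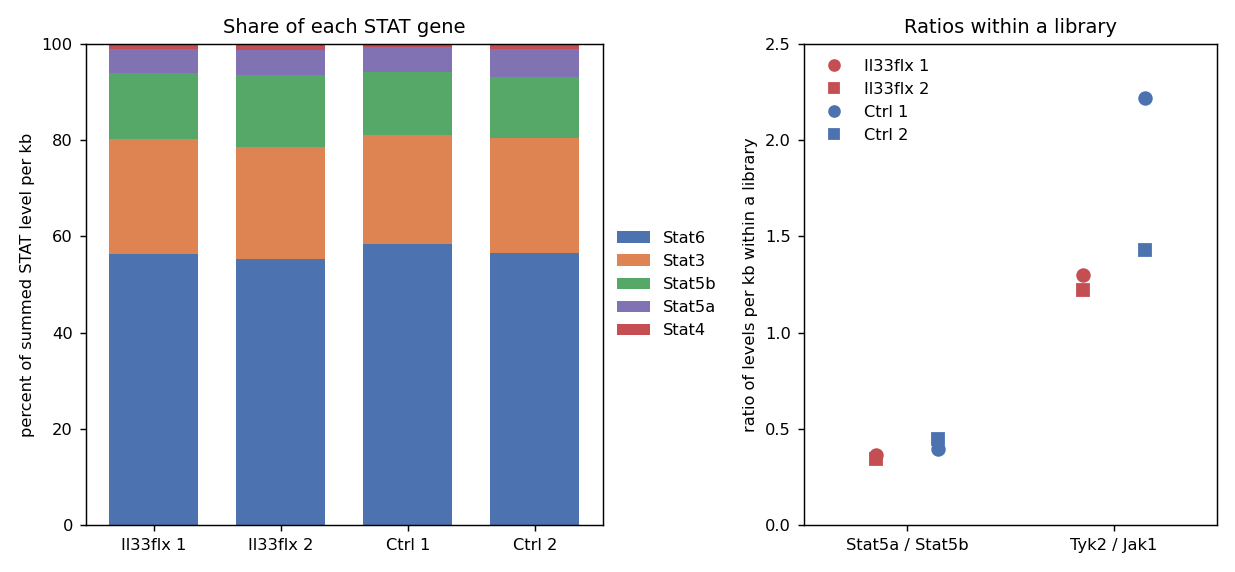
Left, percent of the summed level per kb of the 5 STAT members taken by each of them in each library. Right, ratios of levels per kb within a library for Stat5a over Stat5b and Tyk2 over Jak1, with Il33flx (red) left of Ctrl (blue), where only Ctrl 1 lies above 2.

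Of the 9 remaining kinase, STAT and SOCS genes, 0 were called (0 higher and 0 lower, edgeR), with a median log2 fold change of -0.05. Jak2, a kinase gene of the GM-CSF and interferon-gamma receptors, had 53.7 and 65.7 CPM in Il33flx, against 68.9 and 91.8 CPM in Ctrl. The groups lay apart, and the log2 fold change of -0.43 ± 0.22 (SE, unadjusted p = 0.0993, adjusted p = 0.995, edgeR) was -0.61 without Ctrl 1. Jak2 (29251828 to 29313080) and the targeted gene Il33 (29925114 to 29960718) both lie on chromosome 19. Whether the altered Il33 locus has a part in the Jak2 values was not tested. Socs2 had 9.11 and 8.39 CPM in Il33flx and 13 and 8.23 CPM in Ctrl, and Socs7 had 6.63 and 10.1 CPM in Il33flx and 10.9 and 7.94 CPM in Ctrl, both with overlapping groups. Of 12 further inhibitors, 0 were called, with a median of -0.01. The adaptor gene Sh2b3 had 201 and 192 CPM in Il33flx against 240 and 206 CPM in Ctrl, the SUMO ligase gene Pias4 had 38.7 and 39.5 CPM against 48.5 and 40.7 CPM, and the phosphatase gene Ptpn1 had 163 and 172 CPM against 214 and 167 CPM. Ctrl 1 was the highest library for these 3 genes. Ptpn2, the gene of a phosphatase that acts on JAK1 and STAT proteins, went the other way, with 38.5 and 33.8 CPM in Il33flx, 11.8 CPM in Ctrl 1 and 41.5 CPM in Ctrl 2.

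Of 31 receptors that couple to JAKs, 30 were tested and 0 were called (edgeR), with a median of -0.07. At an unadjusted p below 0.05 in edgeR stood 2 of them, against 3.26% of all genes tested. Epor, the erythropoietin receptor gene, had 1.29 and 0.635 CPM in Il33flx, against 0.287 and 0.346 CPM in Ctrl. Its log2 fold change was 1.60 ± 0.58 (SE) in edgeR (unadjusted p = 0.0307, adjusted p = 0.995). Csf3r, the G-CSF receptor gene, had 95.7 and 73.5 CPM in Il33flx, against 41.3 and 63.8 CPM in Ctrl, and its log2 fold change was 0.69 ± 0.27 (SE) in edgeR (unadjusted p = 0.0403, adjusted p = 0.995) and 0.42 without Ctrl 1. Both receptors are also markers of other cells. The 10 erythroid markers, led by Hbb-bs, Slc4a1 and Hba-a1, Epor among them and none at 0 in all libraries, summed to 35.8 and 15.7 CPM in Il33flx and 6.06 and 5.84 CPM in Ctrl, and the neutrophil sums given above include Csf3r. Il2rb, a chain of the interleukin-2 and interleukin-15 receptors, had 14.8 and 11.1 CPM in Il33flx against 24.9 and 15.8 CPM in Ctrl, and Il12rb1, which pairs with TYK2, had 1.86 and 1.52 CPM against 3.1 and 2.63 CPM. The groups lay apart for both, with adjusted p = 0.995 for each in edgeR.

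Of 20 cytokines that signal through JAKs, 10 passed the filter and 0 were called, with a median of 0.21. Il13 and Ifnb1 had no count in any library. Osm, the gene of the gp130 cytokine oncostatin M, had 32.3 and 27.1 CPM in Il33flx, against 16.4 and 26.1 CPM in Ctrl, and Il12b, the shared subunit of interleukin-12 and interleukin-23, had 25.3 and 23.9 CPM, against 18.8 and 22.6 CPM. Both were higher in Il33flx without overlap, with log2 fold changes of 0.48 ± 0.28 and 0.25 ± 0.21 (SE, adjusted p = 0.995 for each, edgeR) that were 0.19 and 0.13 without Ctrl 1. Il7 had 0.411 and 0.325 CPM in Il33flx against 0.743 and 0.532 CPM in Ctrl, and Il27 had 1.69 and 0.664 CPM in Il33flx against 0.912 and 0.558 CPM in Ctrl.

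**Figure D5:**
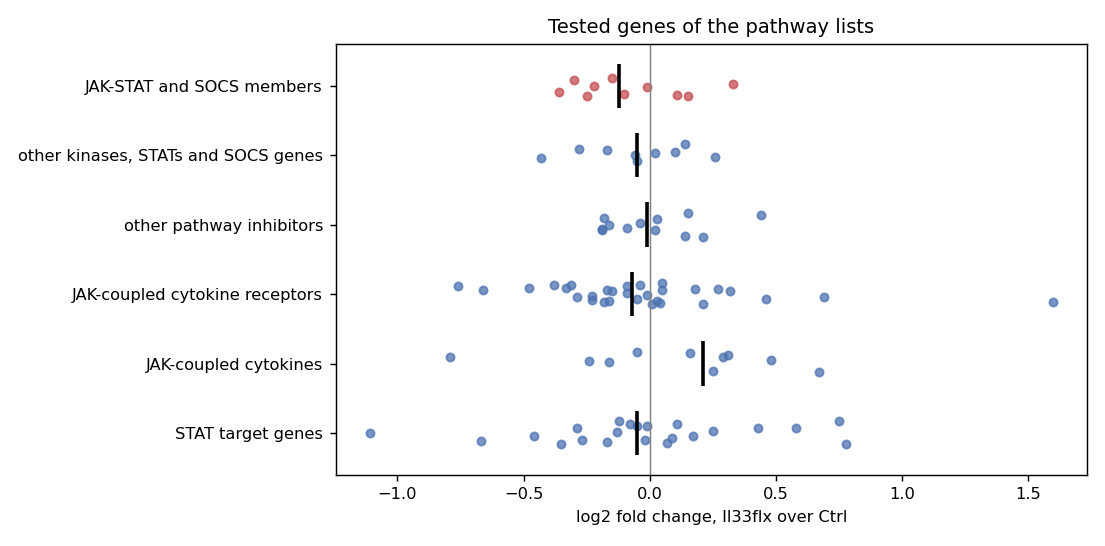
Log2 fold change of Il33flx over Ctrl for the tested genes of each list (points, spread vertically at random) with the list median as a black line. Retnla, with no count in Il33flx, is not drawn, and the median of the 10 members is -0.12.

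Of 23 genes known as STAT targets, 0 were called (0 higher and 0 lower, edgeR), with a median of -0.05. In edgeR, 4 had an unadjusted p below 0.05, against 3.26% of all genes tested. The list was chosen with earlier results of these data known, and no test of it was made. Pim1, a kinase gene turned on by STAT3 and STAT5, had 257 and 251 CPM in Il33flx, against 166 and 136 CPM in Ctrl. Both Il33flx libraries were well above both Ctrl libraries, and the log2 fold change was 0.75 ± 0.18 (SE, 95% interval 0.31 to 1.19, unadjusted p = 0.00521, adjusted p = 0.995, edgeR). Without Ctrl 1 it was 0.91 and Pim1 was called (adjusted p = 0.0477, edgeR), in a fit where the lone Ctrl library is assumed to vary like the Il33flx libraries, while it was not called with DESeq2 (adjusted p = 0.542). Retnla, a STAT6 target that encodes RELM-alpha in alternatively activated macrophages, had 0 counts in both Il33flx libraries and 15 and 49 counts in Ctrl, at least 9.98-fold lower in Il33flx when each Il33flx library is set to a limit of 3 counts (unadjusted p = 0.00342, adjusted p = 0.995, edgeR). That bound was 15.4-fold against Ctrl 2 alone and 4.61-fold against Ctrl 1 alone. DESeq2 called it (adjusted p = 0.0471), and it was not called without Ctrl 1 (0.108) or Ctrl 2 (0.212, edgeR). Mcl1, a survival gene, had 123 and 199 CPM in Il33flx, against 254 and 257 CPM in Ctrl, a log2 fold change of -0.67 ± 0.25 (SE, adjusted p = 0.995, edgeR). Fcer2a, the gene of the low-affinity IgE receptor CD23 and also a B cell marker, had 4.83 and 4.63 CPM in Il33flx, against 2.79 and 2.73 CPM in Ctrl, a log2 fold change of 0.78 ± 0.30 (SE, adjusted p = 0.995, edgeR). The 10 B cell markers, led by Cd79b, Ms4a1 and Bank1, none at 0 in all libraries and Fcer2a among them, summed to 134 and 112 CPM in Il33flx and 62.7 and 64.6 CPM in Ctrl, and the part of B cells in the Fcer2a values was not tested.

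All 10 members were listed in the authors' deposited table, with log2 fold changes of Il33flx over Ctrl between -0.39 (SE 0.26) for Tyk2 and 0.31 (SE 0.33) for Stat4. The smallest unadjusted p there was 0.132, for Tyk2 (authors' deposited table), and the adjusted p was 1 for each of the 10.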

How the data were processed

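RNA of sorted DCs (4 libraries) was isolated by Qiagen RNAeasy plus kit and sequenced from Illumina TruSeq mRNA libraries, per the labels' protocols. Trimmomatic 0.39, STAR, HTSeq and DESeq2 with build GRCm38 were named in the submitters' processing notes. Other versions, read length, strand handling and annotation release are not given in the sources used here. The deposited counts were whole reads per gene, not normalized by the authors, and 5 HTSeq summary rows (27.8% to 30.1% of all reads) stayed out. In the authors' deposited table, the signal columns were those counts divided by a size factor per library, checked against the count table, the log2 columns their fold change and its standard error, the score column their Wald statistic and the p-value columns their unadjusted and adjusted p-values.

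Differences of Il33flx from Ctrl were tested in R 4.3.3 with edgeR 4.0.16 (glmQLFit and glmQLFTest, filterByExpr, TMM factors, no covariate), fitted to all genes. Benjamini-Hochberg adjustment ran over the 14995 genes tested, with 0.05 as the threshold for a call. A standard error is the size of the log2 fold change over the square root of its F statistic. The procedure was tested on simulated counts. DESeq2 1.42.0 and limma 3.58.1 (voom) were alternatives. A limit of 3 counts was worth 0.0391 to 0.0425 CPM per library with the TMM factors. Exon lengths and coordinates came from GENCODE M21 of the same build, and promoters from RefSeq (GRCm38.p6), which held windows for all 10 members.

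The 10 members and the gene lists were chosen with earlier results of these data known. From each pathway list the 4 tested genes with the smallest unadjusted p were named, from each marker list up to 3 of the most abundant where the list was read beside a result, and all members and Il33 always. Itgam, Itgae, Fcgr1, Xcr1, Sirpa and Itgax lie outside this rule and were chosen after their values were seen. A gene that this rule took is not reported here.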

Additional observations from a re-analysis of the deposited data

How the results depend on the processing

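None of the 10 members was called under any of the 11 alternatives (adjusted p = 0.135 to 1). Of 110 member values under them, 99 kept their direction. Stat5b, at -0.01 with all libraries, changed sign with limma-voom (0.01), library size alone (0.07), a filter of 1 CPM in 2 libraries (0.00) and the replicate number as a block (0.01), and ranged from -0.22 to 0.24 when 1 library was left out. With 1 library left out, Stat3 ranged from -0.30 to 0.03, Stat6 from -0.43 to 0.03, Socs1 from -0.40 to 0.17 and Cish from -0.19 to 0.39. The median of the members ranged from -0.26 to 0.03 with 1 library left out. Over all genes, edgeR called 1 higher and 0 lower, DESeq2 29 and 20, limma-voom 0 higher, and edgeR called 0 higher with library size alone, 0 with no filter, and 0 to 19 higher and 0 to 19 lower with 1 library left out. Library size alone moved the median of all genes to 0.09, and the list medians to 0.03 for the other kinases, STATs and SOCS genes, 0.07 for inhibitors, 0.02 for receptors and 0.03 for STAT targets. With 1 library left out, these medians ranged from -0.05 to 0.08 for the other kinases, STATs and SOCS genes, -0.12 to 0.11 for inhibitors, -0.10 to 0.04 for receptors, -0.08 to 0.39 for cytokines and -0.13 to 0.07 for STAT targets. The STAT targets had 1 call with DESeq2 and 0 to 1 with a library left out. The longest transcript as length moved 2 members in the order of levels. The cause was not tested for any of these. With the replicate number as a block, edgeR called 19 genes higher and 14 lower. The labels do not say that a number marks a shared animal or day, and deviations of same-numbered libraries correlated at -0.0323. Depth limits Cish most among the members, since it had the fewest counts, 66 to 96 per library.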

Other observations

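Among the 93 other tested genes of the pathway lists, the gene whose log2 CPM, centred over the 4 libraries, differed least from a member was Pias4 for Stat5a (root mean square difference 0.0295), Sh2b3 for Stat3 (0.0391), Ptpn6 for Stat5b (0.0406), Csf2rb, the shared beta chain of the GM-CSF receptor, for Stat6 (0.0452), Il27ra for Tyk2 (0.055), Il12rb2 for Socs3 (0.0537) and Il2rg for Cish (0.094). With 4 libraries these are descriptions, and many genes follow the same order.

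The genes with the lowest values in Ctrl 1 included Ptpn2, given above, and the NK receptor gene Klrd1, with 23.3 and 24 CPM in Il33flx, 3.96 CPM in Ctrl 1 and 25.1 CPM in Ctrl 2. Nkg7, another NK cell and T cell gene, was highest in that library, with 12.9 and 10.7 CPM in Il33flx, 19.9 CPM in Ctrl 1 and 11 CPM in Ctrl 2.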
